A study of Mus musculus with 8 samples.

Results

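The cytosolic ribosomal protein genes are the set described here: gene symbols that begin with Rpl or Rps followed by a digit, with Rpsa, Rplp0, Rplp1 and Rplp2, and without the S6 kinases and named pseudogenes. The rule uses symbols only, and it found 80 of the 22410 genes with an RNA value and 83 of the 18603 promoter windows with an H3K27me3 value. Rpl9, Rpl10 and Rpl21 had a window but no RNA row of that symbol, and the windows of Rpl10 and Rpl10l are the same stretch of DNA listed under 2 symbols. RNA rows named Rpl9-ps7 and Rpl21-ps8, which the rule leaves out, stood at a mean of 30 or more over the 4 libraries. The Rpl9-ps7 window overlaps that of Rpl9, and whether these rows hold RNA of Rpl9 and Rpl21 was not tested. By role, the RNA rows hold 38 core proteins of the large subunit, 31 of the small subunit, the 3 stalk proteins and 7 paralogs. The remaining symbol, Rps19bp1, matches the rule but encodes a protein that binds Rps19, not a subunit of the ribosome.

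Ribosomal proteins coat and stabilise the ribosomal RNAs of the 2 subunits, the small one that reads the message and the large one that joins amino acids. Their genes are transcribed strongly in nearly every cell, and their messages begin with a run of pyrimidines that lets growth signals set their translation. In naive T cells, which are small and resting, ribosomes are built at a modest rate until activation. H3K27me3 is the histone mark that Polycomb repressive complex 2 (PRC2) places at silent genes through its alternative enzymes Ezh1 and Ezh2, so strongly transcribed genes such as these are usually without it.

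The study measured RNA and H3K27me3 in lymph node CD4+ T cells, naive and purified, of the strain 129SV/B6. The 4 genotypes were WT, Ezh1 -/- (Ezh1 KO), Ezh2 fl/fl CD4-cre (Ezh2 KO) and Ezh1 -/- Ezh2 fl/fl CD4-cre (double KO). Single samples of the conditional lines carry the shorter label Ezh2-/-, and the Cre is driven by Cd4 regulatory sequence, so deletion is placed in the T cell lineage while other cells keep Ezh2. There is 1 library per genotype and assay, 8 in all, so neither an SD nor a test can be given for any difference, and "higher" and "lower" compare single libraries. RNA is the height of the coverage peak of each exon, averaged over a gene's exons, per M reads (M for mega). It is a height and is not divided by length, so the order of genes is an order of heights. H3K27me3 is the area of coverage, likewise per M reads, in a 6 kb window centred on the start site, built from bins of 25 bp.

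Libraries differed in ways that touch every result below. Depth, read from the height of 1 read, was 36.1, 70.4, 40.7 and 94.1 M reads for RNA and 78.2 to 88.2 M for H3K27me3. Throughout, 4 values in a row stand first for WT, then for Ezh1 KO, Ezh2 KO and last double KO. Ezh1 RNA was 1.05, 0.196, 1.12 and 0.194, which goes with the Ezh1 labels, whereas Ezh2 RNA, at 0.925, 0.913, 1.08 and 1.17, does not check the Ezh2 deletion. All 12 T cell markers were detected in every library, with Cd3g and Cd3d among the highest, and their RNA values summed to 278, 243, 244 and 243. The 12 B cell markers were all detected too and summed to 8.53, 11.3, 16.3 and 28.4. Of these, 8 reached 1 in WT or the double KO, and all 8 were at least 2-fold higher in the double KO than in WT. Among them were Cd74, Cd79a, Cd79b, Fcer2a, H2-Aa, H2-Ab1 and H2-Eb1. Since 4 of the 12 reached 1 in WT or the Ezh1 KO, some of the 8 did so through the double KO alone, where they were high. The 10 CD8 T and NK cell markers summed to 5.11, 4.74, 9.26 and 7.83. Of them, 5 reached 1 in WT or the Ezh2 KO, with 3 above WT and 2 below it in that mutant. In WT or the double KO 4 did, with 3 above WT and 1 below it. Gzma and Ccl5 were at least 2-fold above WT in both CD4-cre libraries, and Klrb1c in the Ezh2 KO. The 10 myeloid markers were lowest in WT, with a sum of 0.730, and highest in the double KO, with a sum of 1.62, with 2 genes at 0 in each. Lyz2, the 1 myeloid marker to reach 1 in WT or the double KO, did so in the double KO alone. It was at least 2-fold higher there than in WT. Stromal markers (4.27 to 4.61, mostly Pecam1) and red cell and platelet markers (1.06 in WT, 0.135 to 0.372 in the mutants) were low. The part that other cells played in the ribosomal protein values was not tested.

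The gene starts are shown first, as a description, and no RNA or H3K27me3 value was tested against their sequence. A table of RefSeq promoters (GRCm38.p6), matched by symbol, gave one for 64 of the 83 symbols, 76 promoters in all, each from 250 bases before the start to 50 after it. The stretches below run from 20 bases before the start to 30 after it, 5′ to 3′ on the coding strand. They are the core gene with the largest RNA difference in the single mutants (Rpl31), the 3 core genes whose mean over exons was above WT in every mutant (Rps9, Rps26, Rpl28), and a pair for comparison from each subunit (Rpl35, Rps6). Capitals mark the pyrimidine words CTTTCC or CTCTTT on the coding strand and the ETS word CCGGAA on either strand.
Rpl31: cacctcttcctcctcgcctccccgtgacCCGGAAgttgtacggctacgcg
Rpl28: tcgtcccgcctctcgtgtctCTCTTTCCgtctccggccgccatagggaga
Rpl35: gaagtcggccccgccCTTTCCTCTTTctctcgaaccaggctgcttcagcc
Rps9: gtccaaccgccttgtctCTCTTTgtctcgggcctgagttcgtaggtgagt
Rps26: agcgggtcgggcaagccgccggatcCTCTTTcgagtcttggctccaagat
Rps6: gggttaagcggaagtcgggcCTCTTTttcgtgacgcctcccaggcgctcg
They lie at chr1:39367831-39367880 (plus strand, Rpl31), chr7:4792945-4792994 (plus, Rpl28), chr2:39005102-39005151 (minus, Rpl35), chr7:3704021-3704070 (plus, Rps9), chr10:128626477-128626526 (minus, Rps26) and chr4:86857338-86857387 (minus, Rps6). From 20 bases before the start to 50 after it, a pyrimidine word stood in 40.8% of the 76 promoters and in 5.44% of all 32851. Over the whole 300 bases and both strands, CCGGAA stood in 46.1% against 14.9%, the GC box GGGCGG in 60.5% against 35.7%, the YY1 word AAGATGG in 15.8% against 6.34% and the E box CACGTG in 10.5% against 7.15%. A TATAAA word in the 50 bases before the start was found in 1 of the 76, that of the paralog Rpl22l1, and in 2.63% of all promoters. CTTTCC followed by GG holds the reverse of CCGGAA, so these words can overlap, and a match is a description of letters, not a binding site.

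The deposited row named Rps27 does not lie at Rps27. Its single exon is at chr9:114891571-114891825 in mm9, over the gene model Gm9846, at the start of the copy that RefSeq names Rps27rt, whereas Rps27 itself is annotated on chromosome 3. The 50 bases around both starts are set side by side because they show how alike the genes are, with capitals for the longest shared run, 38 bases within the 300-base promoters.
Rps27: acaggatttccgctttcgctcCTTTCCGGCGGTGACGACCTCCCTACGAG
Rps27rt: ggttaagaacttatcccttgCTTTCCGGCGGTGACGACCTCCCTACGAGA
These are chr3:90213619-90213668 and chr9:114982710-114982759 in GRCm38.p6, both on the minus strand, and the capitals end where the printed stretch ends. Another 3 rows were off the gene of their symbol. The Rpl10l row lies at Rpl10 on the X chromosome (chrX:71516295-71518145 in mm9), while Rpl10l is annotated on chromosome 12. The Rpl41 row joins 4 exons on different chromosomes and the Rps13 row 2, over gene models such as Gm10076, Gm3699, Gm10159 and Rps13-ps1. These 4 rows are named below as rows and kept in the counts, and 69 core and stalk rows lie at their own gene. A window counted as at its gene when centred within 3000 bp of the start in either the mm9 annotation or RefSeq. The Rpl13a window is centred 186 bp from the mm9 annotated start and 7486 bp from the RefSeq start. That window and the Rpl13a RNA row also lie over Flt3l.

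Ribosomal protein RNA was among the highest in these cells. The median member stood at 114.9, 95.4, 103.0 and 96.3 per M reads, while the median of all genes lay between 0.058 and 0.074. Members held 61, 58, 60 and 59 of the 100 highest genes, and their values summed to 27.6%, 25.4%, 25.2% and 24.7% of the sum over all genes. In bulk RNA, fewer cells of a type and less RNA per cell cannot be told apart. The plot of RNA by gene and library shows 67 of the 69 core and stalk rows at their own gene.

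**Figure D1:**
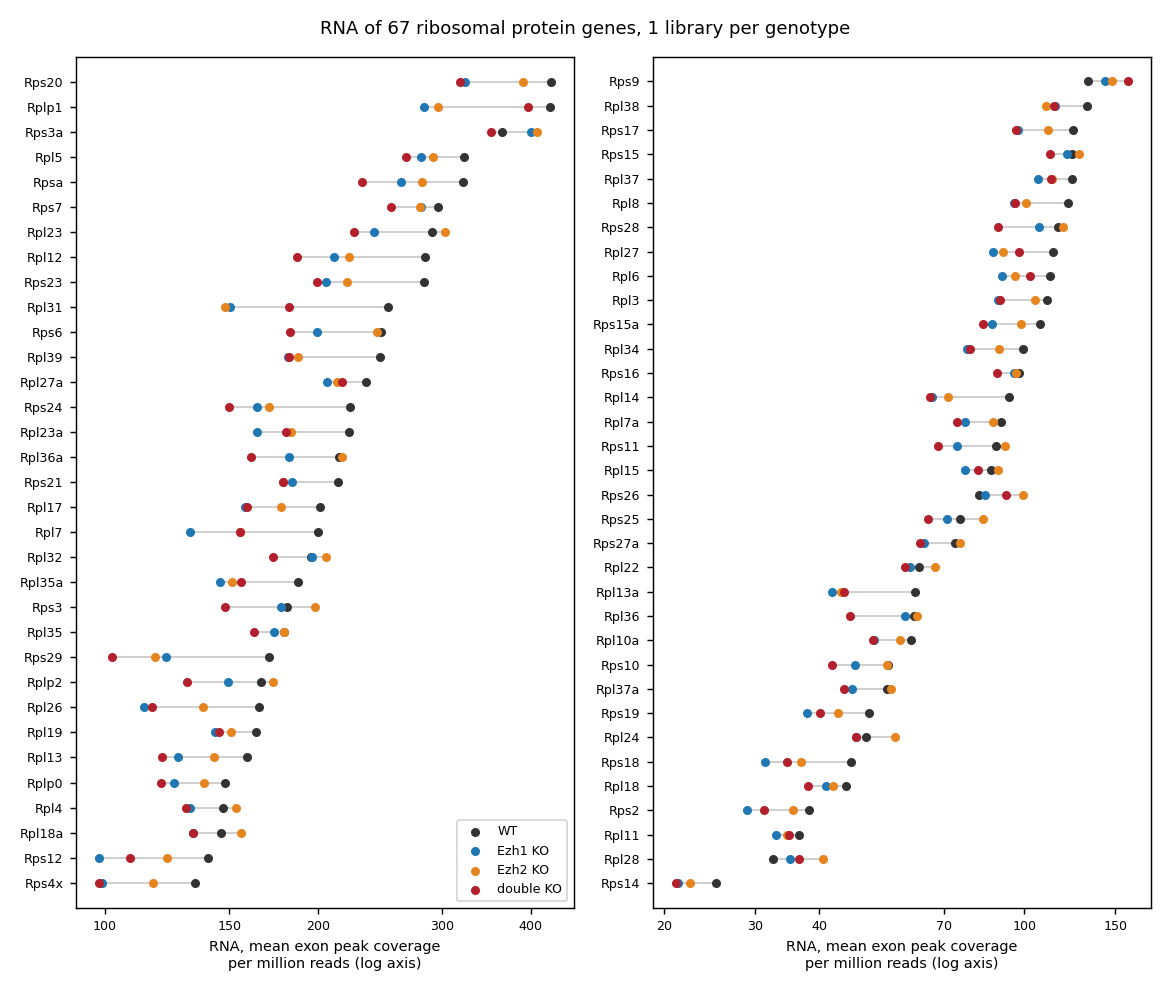
RNA of 67 core and stalk genes whose row lies at the gene, as mean exon peak coverage per M reads on a log axis, ordered by the WT value and split over 2 panels. Each point is 1 library and the grey line spans the 4 libraries; the WT point is the rightmost for most genes, with Rps9, Rps26 and Rpl28 as genes where it is the leftmost.

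Within the ribosome the heights were uneven. In WT the highest members were Rps20 at 427, Rplp1 at 425, Rps3a at 364, Rpl5 at 322 and Rpsa at 320. Rplp1 is a stalk protein that recruits translation factors, Rpl5 carries 5S ribosomal RNA into the large subunit, and Rpsa is also known as the laminin receptor. The lowest core gene at its own locus was Rps14, at 25.3, 21.3, 22.5 and 21.1, which still ranked 186 of all genes in WT. The order of Rps20, Rplp1 and Rps3a differed between libraries: Rps20 was at 427, 323, 390 and 317, Rplp1 at 425, 282, 296 and 397, and Rps3a at 364, 400, 408 and 352. Without replicates, neighbours in this order cannot be ranked beyond their spread. In WT the mean over exons was at least 2 times the median over exons for Rpl13a, Rps10, Rps19 and Rps24, so the choice of mean or median sets the level of those 4.

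The 5 paralogs whose parent gene has a level of its own were lower than that parent. Rpl22l1, the paralog of a protein needed in T cell development, was at 8.43, 5.89, 6.27 and 5.05, and Rpl22 at 62.4, 60.0, 67.1 and 58.7. Rpl36al was at 57.6, 44.9, 58.7 and 42.7, below Rpl36a at 214, 182, 216 and 161. Rpl7l1 was at 4.97, 3.86, 4.37 and 3.66, and its parent Rpl7 at 200.3, 132, 155 and 155. Rps27l, which is induced by p53, was at 1.08, 0.673, 0.977 and 0.825, and no level of its parent Rps27 can be given since that row lies elsewhere. The muscle paralog Rpl3l (0.016, 0.019, 0.025, 0.017) and the testis paralog Rpl39l (0.096, 0.114, 0.133, 0.070) were near 0, where their parents Rpl3 and Rpl39 stood at 111 and 245 in WT. Besides these 2, the members under 1 in WT were Rps19bp1 at 0.707 and the Rpl41 row at 0.222.

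Similar copies elsewhere in the genome bear on these heights. Ribosomal protein genes are known for their many processed pseudogenes, and a read that matches several places is not kept under the alignment rule the labels give. Of all 50-base words in a member's exons, a median of 72.1% occurred once in mm9, with 25 of 80 members under 50%. For 76 mitochondrial ribosomal protein genes the median was 99.5%, with 1 gene under 50%, and for the 83 other genes at a mean of 30 or more over the 4 libraries it was 74.6%, with 31 under 50%. Rpl31, Rpl17, Rps12, Rps23 and Rps28 had no such word, with a median of 3 to 9 exact copies each, yet their WT RNA stood at 251, 201, 140, 282 and 116. Only exact matches inside exons were counted, so reads over exon junctions are not covered, and how these rows came to hold their values was not tested. The labels describe the alignment in the text of the ChIP protocol, and whether RNA reads were placed the same way is not settled by them. Across the 69 core and stalk rows at their own gene, WT RNA on the log2 scale and the share of unique words had a Pearson r of -0.15 over genes of 1 library, which are not replicates.

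**Figure D2:**
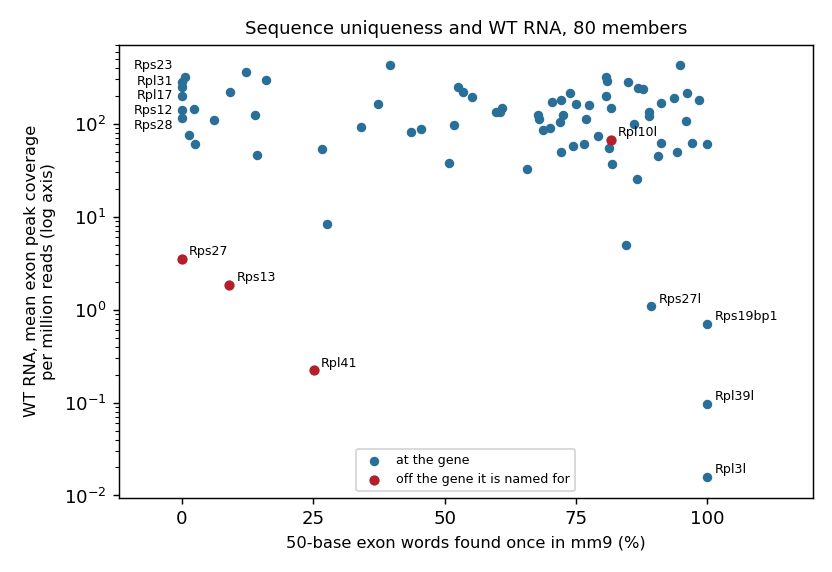
WT RNA (mean exon peak coverage per M reads, log axis) against the percent of a gene's 50-base exon words that occur once in mm9, for 80 members. Blue points are rows at the gene and red points the 4 rows off it; 5 blue points sit at 0% with RNA of 116 to 282.

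In the Ezh1 KO, ribosomal protein RNA was lower than in WT across the set, by small amounts. Of the 76 members that reached 1 in the higher library, 70 were below WT and 6 above it, with a median log2 ratio of -0.25. All 5201 genes that entered had a median of -0.13, with 77.3% below WT. Relative to that shift of all genes the members' median was -0.12, and 56 of 76 lay below the median of all genes. No member differed by 2-fold, where 0.442% of all genes did, and 4 were at least 1.5-fold lower, where 2.73% of all genes were.

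Those 4 were Rpl31, Rpl7, Rplp1 and the paralog Rps27l, and no member was 1.5-fold higher, against 0.596% of all genes. Scaled by the trimmed mean of all log ratios, Rpl31 (-0.61) still passed 1.5-fold, and Rps27l (-0.50), Rpl7 (-0.48) and Rplp1 (-0.46) did not. Of their 50-base exon words, 0% occurred once in mm9 for Rpl31, 39.7% for Rplp1, 80.6% for Rpl7 and 89.3% for Rps27l. The part of read placement in these ratios was not tested. Rpl31, a large subunit protein beside the exit tunnel, was at 251, 150, 148 and 182, so all mutants were under WT. Its log2 ratio in the Ezh1 KO was -0.74. Rplp1 was at 425, 282, 296 and 397, low in both single mutants and near WT in the double KO, with a log2 ratio of -0.59 in the Ezh1 KO. Rpl7 and Rps27l had ratios of -0.60 and -0.62. Rps27l passed the entry minimum of 1 through its WT value alone (1.08), and its mutant value was 0.673. Its place among the 4 therefore rests on a level near that minimum. The highest ratios were 0.14 for Rps3a and 0.11 each for Rps9 and Rpl28; with the median over exons in place of the mean, Rps9 alone of these 3 stayed above WT. Rps3a then stood at 309.6 in WT against 278 in the mutant, and Rpl28 at 28.7 against 27.2.

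In the Ezh2 KO the members lay nearer to WT. Of 76, 51 were below and 25 above, with a median log2 ratio of -0.12 beside -0.04 for all 5347 genes, of which 56.4% were below WT. No member differed by 2-fold, where 1.5% of all genes did. At 1.5-fold Rpl31 was the one lower (-0.76), where 2.81% of all genes were, and 0 were higher, where 3.39% were. The small subunit protein Rps29 (-0.54) and Rplp1 (-0.52) followed. No 50-base exon word of Rpl31 occurred once in mm9, and 39.7% of those of Rplp1 did. The highest ratios belonged to the rows named Rps13 (0.42) and Rpl10l (0.34), both off their genes, and to Rpl28 (0.33) and Rps26 (0.28).

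In the double KO the members stood furthest under all genes among the comparisons with WT. Of 76, 72 were below WT and 4 above, with a median log2 ratio of -0.29 beside -0.10 for all 5313 genes, of which 67.1% were below WT. Relative to the shift of all genes the median was -0.19, and 66 of 76 lay below the median of all genes. No member differed by 2-fold, where 1.24% of all genes did. At 1.5-fold 3 were lower, where 2.33% of all genes were, and 0 higher, where 2.65% were.

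The 3 were Rps29, Rpl22l1 and Rpl12. In that order, 70.5%, 27.6% and 84.9% of their 50-base exon words occurred once in mm9. Rps29, a small zinc-binding protein of the small subunit, was at 171, 122, 118 and 102, a log2 ratio of -0.74 in the last. Rpl22l1, with the levels given among the paralogs, had a ratio of -0.73, and Rpl12, which sits at the base of the stalk, was at 283, 211, 221 and 187 (-0.60). All 3 genes were below WT in every mutant and lowest in the double KO. Rpl12 was under 1.5-fold with the trimmed mean (-0.50) and with the median over exons (-0.51). Above WT were Rps9 (0.26), Rps26 (0.18), Rpl28 (0.17) and the Rps13 row (0.06). Rps9 was at 133, 144, 148 and 159, Rps26 at 81.5, 83.9, 99.2 and 92.2, and Rpl28 at 32.5, 35.1, 40.8 and 36.6. These 3 were the core genes with WT as the lowest library by the mean over exons. By the median over exons this held for Rps9, while Rps26 and Rpl28 had the Ezh1 KO lowest, at 95.5 and 27.2.

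No member reached 1.5-fold between the double KO and either single mutant. The double KO against the Ezh1 KO gave a median of -0.02 over 75 members, 45 below and 30 above, beside 0.04 for all 5096 genes, and Rplp1 had the highest ratio at 0.49, followed by Rpl31 (0.28) and Rpl7 (0.24). The lowest in that comparison were Rpl36 (-0.36), the Rps27 row and Rps3 (-0.26 each). Against the Ezh2 KO the median was -0.19, 62 below and 13 above, beside -0.06 for all 5218 genes. Its extremes were Rplp1 (0.42) and Rpl31 (0.30) on the high side and the Rps27 row (-0.48), the Rpl10l row (-0.47) and Rpl36al (-0.46) on the low side. In the comparison with the Ezh1 KO 2.59% of all genes were 1.5-fold higher, 0.589% lower and 0.883% 2-fold different, and against the Ezh2 KO 1.36%, 1.72% and 0.786%. All 5 comparisons share libraries, so the values stand side by side and their likeness is not a result.

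**Figure D3:**
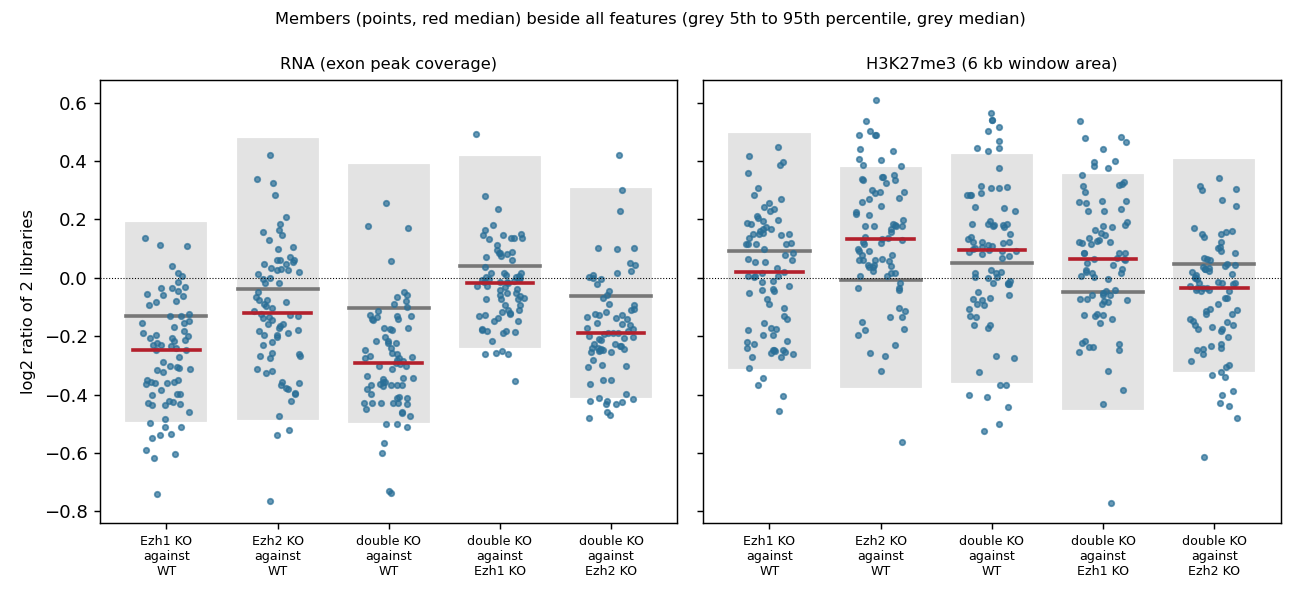
Log2 ratios of 2 libraries for each member (blue points, red line at the median) in 5 comparisons, for RNA (left) and H3K27me3 (right), beside the 5th to 95th percentile (grey box) and median (grey line) of all features. In RNA the members' median lies at -0.25, -0.12 and -0.29 against WT, each under that of all genes, and in H3K27me3 at 0.02, 0.13 and 0.10.

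Medians of the subunits lay close together. For the Ezh1, Ezh2 and double KO in turn against WT, the median log2 ratios were -0.23, -0.13 and -0.27 for 37 large subunit genes, -0.25, -0.10 and -0.31 for 31 small subunit genes, and -0.24, -0.10 and -0.30 for the 3 stalk genes. The 5 paralog rows that entered had medians of -0.36, -0.14 and -0.43, with the Rpl10l row, which lies at the core gene Rpl10, among them. Among the 18 members mutated in Diamond-Blackfan anaemia, a failure of red cell production (Rpl5, Rps7 and Rpl31 were the highest in WT), 17, 14 and 17 were below WT, with medians of -0.20, -0.12 and -0.27. Rps19, the first of these to be linked to the disease, was at 50.0, 37.9, 43.4 and 40.2. Rpl5 and Rpl11, which hold back Mdm2 when ribosome assembly fails, were at 322, 280, 291 and 267 and at 36.6, 33.0, 34.7 and 35.0. Members with at least 50% of their words found once gave -0.26, -0.13 and -0.29 over 52 genes, close to the whole set.

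Other genes of the translation machinery, taken from lists chosen by function, are read beside the shares of all genes below WT (77.3%, 56.4% and 67.1%). Most were below WT in the Ezh1 KO and double KO, while initiation and assembly genes were about evenly split in the Ezh2 KO. Of the ribosomal proteins with other symbols, Gnb2l1, a scaffold on the small subunit, was at 96.2, 64.9, 66.4 and 70.5, below WT in every mutant, and Fau, made as a fusion with a ubiquitin-like protein, was at 94.4, 84.6, 94.7 and 80.2. The 8 elongation genes had medians of -0.35, -0.19 and -0.28, with Eef1a1, the factor that brings aminoacyl-tRNA, at 494, 415, 468 and 427, above every ribosomal protein gene. The 29 initiation genes (Eif3e, Eif4a2 and Eif4a1 highest) gave -0.17, 0.03 and -0.14, with 27, 13 and 21 below WT. The 40 ribosome assembly genes that entered (Npm1, Nop10 and Imp3 highest) gave -0.12, -0.02 and -0.20, with 33, 20 and 36 below WT, and the nucleolar protein gene Npm1 stood at 54.9, 41.7, 51.2 and 46.3. Mitochondrial ribosomal protein genes, which build the separate ribosome of mitochondria, gave -0.21, -0.06 and -0.24 over 59 to 61 genes.

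Genes that act on ribosomal protein transcription and translation stood nearer 0. The 10 that entered (Yy1, Sp1 and Max highest) had medians of -0.08, 0.02 and 0.06, with Yy1 at 6.44, 6.37, 6.61 and 6.70. The 83 other genes at a mean of 30 or more, with a median height of 52.0 in WT against 114.9 for the members, had median ratios of -0.17, 0.00 and -0.13. Summed RNA of the members was 10632, 8802, 9658 and 8672, so WT was highest, as it was for the T cell marker sum given above. The sum over all genes was 38565, 34606, 38292 and 35081, lowest in the 2 deepest libraries, and the part of depth in these differences was not tested.

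H3K27me3 at ribosomal protein promoters was at the level of expressed genes. Background is taken as the 7077 windows of genes in the upper tertile of WT RNA, with medians of 10.1, 9.82, 11.1 and 10.4. The members' medians were 9.24, 9.41, 10.4 and 10.0, which is 0.910, 0.958, 0.939 and 0.966 of background. A window is called marked here at 4 times background or more. Of 83 member windows 1, 1, 0 and 1 reached that, where 12.0%, 16.9%, 7.49% and 12.7% of all windows did. That window was the one named Rps27 in each case, and without the 4 rows off their gene the count was 0 in all libraries. The median member window held 122 to 147 read equivalents (window signal divided by that of 1 read).

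The window named Rps27, at chr9:114888825-114894825 in mm9, was at 43.3, 49.7, 37.6 and 46.6, marked in 3 libraries and under the threshold of 44.3 in the Ezh2 KO. At its own gene the highest window was Rpl26, which encodes a large subunit protein that also binds p53 mRNA, at 26.2, 30.8, 23.0 and 25.8. Rpl23a (19.1), Rpl34 (18.4) and Rpl31 (17.5) followed in WT. Rpl26 stayed above 2 times background in every library, and the counts at that lower threshold were 2, 3, 2 and 3. The lowest windows in WT were Rpl39 and the shared window of Rpl10 and Rpl10l, both at 4.48.

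Low values gathered on the X chromosome. The 4 X-linked windows at their gene (Rpl10, Rpl36a, Rpl39, Rps4x) had medians of 5.13, 4.70, 5.45 and 5.59, and the autosomal members 9.31, 9.41, 10.7 and 10.0. The 211 background windows on the X chromosome showed the same split, at 5.14, 4.96, 5.80 and 5.41 against 10.2, 9.94, 11.2 and 10.5 on the autosomes. Rpl36a, at 8.84, 10.9, 7.22 and 5.95, was above the X background in every library. It was the highest X-linked member in WT, the Ezh1 KO and the Ezh2 KO, while in the double KO Rps4x was higher, at 6.38. RNA of the X-linked members was high, with Rpl39 at 245, 182, 188 and 182, Rpl36a at 214 in WT and Rps4x at 134, 99.2, 117 and 98.2.

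**Figure D4:**
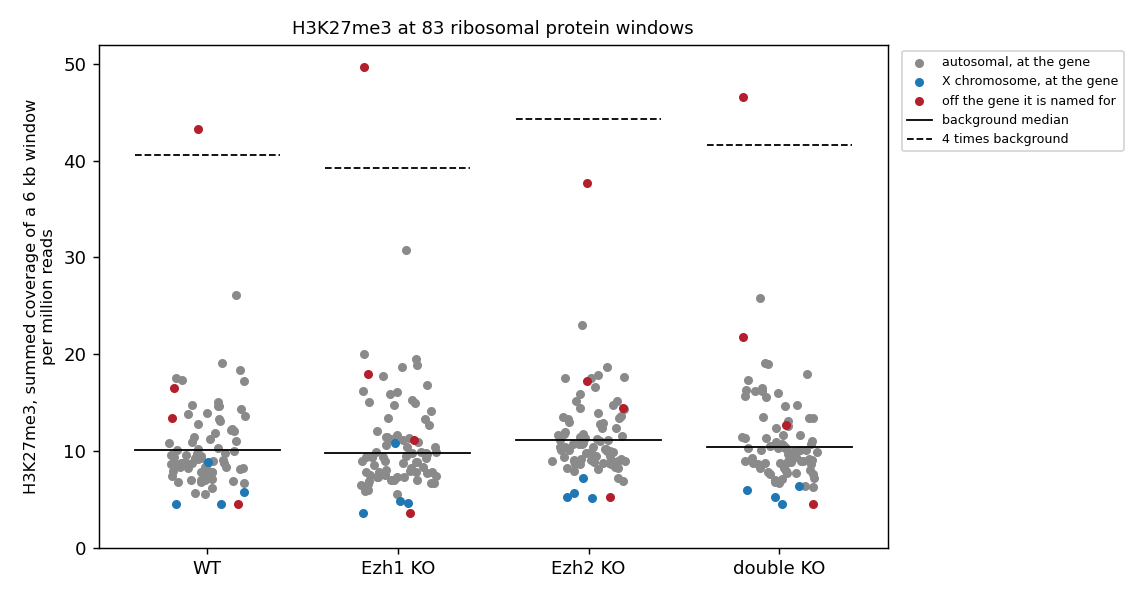
H3K27me3 at 83 ribosomal protein windows in each library, as the area of coverage per M reads in 6 kb (1 point a window; horizontal jitter has no meaning). The solid line is the background median of 9.82 to 11.1 and the dashed line is 4 times that; the highest red point is the window named Rps27, and the blue X-linked points lie low save Rpl36a, with a WT value of 8.84 and an Ezh1 KO value of 10.9.

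Between genotypes the members' H3K27me3 moved little. In the Ezh1 KO 47 windows were above WT and 36 below, with a median log2 ratio of 0.02 beside 0.09 over all 17972 windows; scaled by trimmed mean the members' median turned to -0.071. No member reached 1.5-fold, where 1.93% of windows were higher and 0.256% lower, or 2-fold, where 0.0334% were different. Among the extremes were Rps26 (0.42) above and Rpl9 (-0.46) and Rpl23 (-0.40) below. The 95% counting interval of the ratio lay above 0 for 7 windows and below 0 for 4, where it did for 29.1% and 4.7% of all windows, and such an interval holds only the error of counting, because reads copied by PCR and carrying no molecular identifier need not be separate molecules.

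In the Ezh2 KO 66 windows were above WT and 17 below, with a median of 0.13 beside -0.01 over all 17982, and the median was 0.019 when background windows were set equal. Rps18, a protein of the small subunit head, was the member at least 1.5-fold higher, where 0.606% of windows were. It was at 6.14, 7.26, 9.89 and 9.38, a log2 ratio of 0.61 for the Ezh2 KO with a counting interval of 0.28 to 1.11. None was 1.5-fold lower, where 0.795% were, or 2-fold different, where 0.0334% were. With background windows set equal the ratio of Rps18 was 0.49. Its window overlaps those of B3galt4 and Vps52. Rpl28 (-0.56) and Rpl23 (-0.32) were lowest. In the double KO 55 were above WT and 28 below, with a median of 0.10 beside 0.05 over all windows. None reached 1.5-fold, where 1.14% of windows were higher and 1.48% lower, or 2-fold, where 0.172% were different. Rpl7a (0.57) and Rps26 (0.54) were highest, and Rpl28 (-0.52) and Rpl36a (-0.50) lowest. In the Ezh2 KO, intervals lay above 0 for 16 windows (8.35% of all windows) and below 0 for 3 (15.8%). In the double KO they lay above 0 for 10 (18.5%) and below for 8 (9.23%). By role, large subunit windows had medians of 0.08, 0.12 and 0.09 against WT and small subunit windows 0.01, 0.18 and 0.12. Stalk windows had medians of -0.14, 0.02 and -0.02 and paralog windows 0.02, 0.12 and 0.02. The paralog windows include the one named Rpl10l, which lies at Rpl10.

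Rpl28 and Rpl36a show how single windows behaved. Rpl28 was at 17.2, 16.1, 11.3 and 11.6, with both libraries labelled CD4-cre below the other 2, and counting intervals of -0.91 to -0.30 and -0.86 to -0.27 for those libraries against WT. Rpl36a, whose window overlaps that of Btk, a kinase gene of B cells, was at 8.84, 10.9, 7.22 and 5.95. The double KO against the Ezh1 KO therefore gave -0.77 for Rpl36a, the one member at least 1.5-fold lower, where 2.18% of windows were lower, 0.373% higher and 0.223% 2-fold different. Against the Ezh2 KO the member at least 1.5-fold lower was Rpl13, at 10.2 there and 6.34 in the double KO (-0.61), where 0.289% of windows were lower, 0.534% higher and 0.0334% 2-fold different. With background windows set equal the ratio of Rpl13 was -0.53. Medians in these 2 comparisons were 0.06 and -0.03, and both changed sign when background windows were set equal, to -0.011 and 0.050. In all, 32 of the 83 windows overlap the window of another gene, so their values are shared at least in part with a neighbour.

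**Figure D5:**
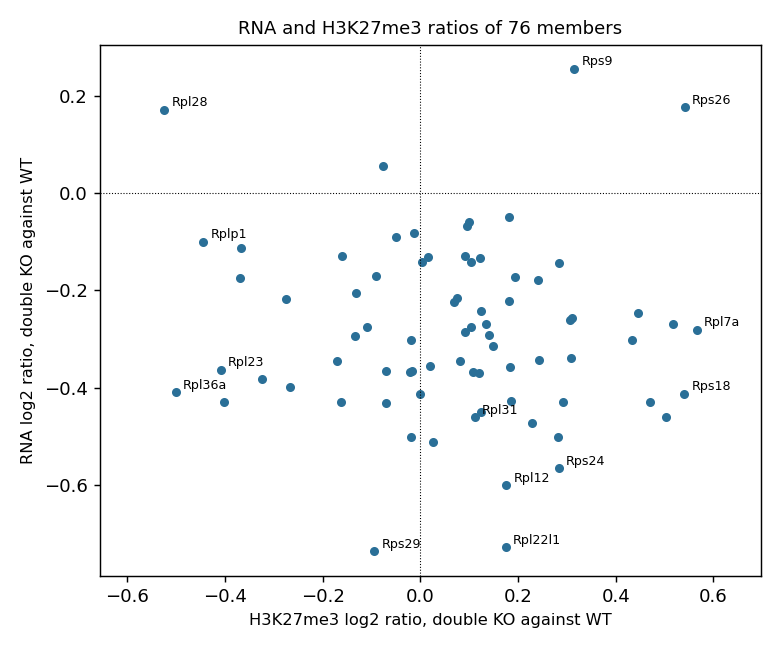
RNA log2 ratio against H3K27me3 log2 ratio, double KO against WT, for the 76 members that entered in RNA; each point is 1 gene and dotted lines mark 0. Most points lie below 0 in RNA on both sides of 0 in H3K27me3, with Rpl28 at -0.52 and 0.17 and Rps26 at 0.54 and 0.18.

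RNA and H3K27me3 ratios of the members showed little relation. Over the 76 genes Pearson's r was -0.05, -0.17 and -0.07 for the Ezh1, Ezh2 and double KO against WT, and over all genes in both assays 0.03, -0.10 and -0.07. These are across genes of the same libraries, which share depth and scaling, and are given as descriptions. Among the 3 core genes whose mean over exons was above WT in every mutant, H3K27me3 was lower for Rpl28 (17.2 in WT, 11.6 in the double KO) and higher for Rps26 (8.33 and 12.6) and Rps9 (6.73 and 8.62). Within WT, RNA on the log2 scale and H3K27me3 had an r of -0.05 over 76 members at their own gene.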

How the data were processed

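RNA-seq and H3K27me3 ChIP-seq libraries of 4 genotypes, 1 each, were analysed. Per the labels, 50-cycle reads were aligned to mm9 with Bowtie 0.12.7, and reads with at most 2 errors at no more than 1 location were kept. Cufflinks, Cuffdiff and bcl2fastq are named by the submitters' processing notes with no role. Deposited columns hold coverage signal: area and highest bin of each start site window, mean and median exon peak of each gene, per the file headers. From the values these are per M reads, with reads extended to 151 bp in ChIP. Per the file headers, the RNA files also hold another number, the exons per gene. How the authors computed the columns, and whether input was used, is not given in the sources used here.

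Values were used as deposited. Ratios are log2 with a pseudocount of 0.1 (RNA) or 1 (H3K27me3), so that they understate changes of low genes, and a feature entered at 1 or more in the higher library. Features were counted at 2-fold and 1.5-fold over the whole tables, and no p was computed. ChIP ratios have exact Clopper-Pearson intervals at 95%, without the pseudocount, from read equivalents (area divided by the height of 1 read and by the 25 bp bins a read spans). Rows were set against the mm9 gene annotation, RefSeq promoters were placed in mm9 by exact match, and motifs and unique words were counted by exact match. The 2-fold calls were tested on data simulated from the WT values with the error of counting alone, and the 1.5-fold calls were not. Python 3.11.15, pandas 2.3.3, numpy 2.4.6 and scipy 1.17.1 were used. The member rule uses symbols only, and the lists were chosen with earlier results of these data known. Named genes are the 5 highest and 5 lowest in WT RNA, members under 1, the extremes and every 1.5-fold member of each comparison, the extreme windows, all paralogs with their parents, the X-linked members, and Rpl22, Rps19, Rpl5 and Rpl11. From the other lists, the highest genes and those at 2-fold are named, except as stated below. Rpl17, Rps12, Rps23 and Rps28, and Rpl35 and Rps6 for their sequence, were named after values were seen. Alternatives were other scalings, pseudocounts, minimums, exon medians, highest bins, core members only and a lower threshold for marked windows. Values of a few genes are not reported here by name, and they remain in the counts and medians.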

Additional observations from a re-analysis of the deposited data

How the results depend on the processing

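Of the alternative values of results that answer a comparison, 39 moved by over 0.1 (log2) or 1.5 times the count and 4 changed sign. For named genes 848 stayed and 157 moved. With the trimmed mean of log ratios, or with the median of other genes set to 0, the RNA median was -0.12 for Ezh1 KO and -0.19 for double KO, and 1 member instead of 4 passed 1.5-fold in the Ezh1 KO. With the median over exons, 8, 4 and 10 members passed in the Ezh1 KO, Ezh2 KO and double KO against WT (5.93%, 8.96% and 7.03% of all genes) and 1 in the double KO against the Ezh2 KO (3.91%), and RNA levels were 97.8, 84.6, 94.0 and 82.6. Core members alone stood at 124, 103 and 115 in WT, the Ezh1 KO and the Ezh2 KO. No minimum gave 2 in the Ezh2 KO. In members with at least 50% unique words, an alternative chosen after seeing the data, 2 passed for Ezh1 KO and 0 for Ezh2 KO.

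For H3K27me3 the median in the Ezh1 KO reversed to -0.071 with the trimmed mean. With background windows set equal it was 0.019 in the Ezh2 KO, -0.011 for the double KO against the Ezh1 KO and 0.050 against the Ezh2 KO, where 0 members then passed 1.5-fold. In the highest bin, with a pseudocount of 0.01, the median of the double KO against the Ezh1 KO was -0.042, and 9, 10, 10, 7 and 10 members passed in the 5 comparisons, where 7.72%, 6.42%, 7.77%, 8.12% and 5.93% of all windows did. A pseudocount of 0.1 gave 3 for Ezh2 KO and 3 for double KO against WT, and one of 10 gave 0 for Ezh2 KO against WT and for double KO against either single mutant. At 2 times background 2, 3, 2 and 3 windows passed, and without the rows off their gene, also chosen after seeing the data, 0 passed 4 times background in WT, the Ezh1 KO and the double KO. The cause of these changes was not tested. No paired analysis was possible because each group has 1 library. No replicate could be left out for the same reason.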

Other observations

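The Cd4 window, at 19.9 and 24.1 in the WT and Ezh1 KO libraries, stood at 193 and 212 in those of the Ezh2 KO and double KO, whose labels carry CD4-cre. The H2-Ab1 window, of a B cell marker, had a value of 28.0 in WT against 13.1 in the double KO. The Cre of the CD4-cre lines is driven by Cd4 regulatory sequence, and its part in the Cd4 window values was not tested. No ribosomal protein window reached the Cd4 values of 193 and 212 in any library. The highest was the window named Rps27, at 49.7 in the Ezh1 KO.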
